A study of Mus musculus with 6 samples.

Results

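The Dickkopf (Dkk) and secreted Frizzled-related protein (Sfrp) genes were examined in oligodendrocyte precursor cells (OPCs), the dividing glia from which oligodendrocytes form. The set was fixed by name as Dkk1, Dkk2, Dkk3, Dkk4, Sfrp1, Sfrp2, Sfrp4, Sfrp5 and Frzb (also called Sfrp3), and all 9 were found among the 18211 genes measured. RNA was sequenced from OPCs of the brains of C57BL/6 mice at postnatal day 7 (P7), in 3 libraries from wildtype mice and 3 from NG2-CreERTM:DISC1 exon3 fl/+ (DISC1-Δ3) mice. Tamoxifen was given by gavage from P4 to P7 to both genotypes, and OPCs were taken by immunopanning with an antibody against PDGFRα, without culture. In DISC1-Δ3 mice, tamoxifen-activated Cre under control of the NG2 locus removes exon 3 from 1 of the alleles of Disc1. The wildtype mice carried no CreERT, so that the presence of CreERT and the loss of exon 3 cannot be told apart in this comparison. The labels do not say how many animals each library holds, and p-values therefore describe the spread between these libraries, which may be technical.

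Dkk and Sfrp proteins are secreted and restrain Wnt signaling outside the cell. Dkk proteins bind the co-receptors LRP5 and LRP6, and, together with Kremen receptors, keep them from pairing with a Frizzled receptor. Sfrp proteins carry a cysteine-rich domain like that of the Frizzled receptors and bind Wnt ligands directly. Dkk3 is the divergent member of the Dkk family and is not regarded as a classical LRP antagonist. Several of these genes, among them Dkk1 and Dkk4, are known in other tissues as targets of β-catenin, which makes them part of a feedback loop. In the oligodendrocyte lineage, high Wnt/β-catenin activity is known to hold back the maturation of OPCs.

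The libraries held 13716619 to 16417219 assigned reads. Wildtype libraries differed from each other by more than counting noise (chi-square over its degrees of freedom 1.81 to 2.92 for the 3 pairs). DISC1-Δ3 replicate 3 stood apart, at 5.24 and 4.98 against the other DISC1-Δ3 libraries, whose own pair was at 2.65. Levels are given as RPKM (reads per kilobase of transcript, scaled to sequencing depth), and changes as log2 fold changes of DISC1-Δ3 against wildtype from edgeR's quasi-likelihood test on read counts, with Benjamini-Hochberg adjustment over all genes tested. The test also applied TMM scaling factors, 0.970 to 0.973 in wildtype and 1.02 to 1.04 in DISC1-Δ3 libraries, which the RPKM do not carry. Over all tested genes the median log2 fold change was 0.0075 by edgeR and 0.087 by limma on log2(RPKM + 0.1). Folds, sums and overlaps of RPKM thus lean more towards higher in DISC1-Δ3 than the fitted changes. The targeted gene, Disc1, was at 3.34 to 3.81 RPKM in wildtype and 2.44 to 2.86 in DISC1-Δ3 libraries (log2 fold change -0.45, adjusted p = 0.000528 from edgeR), values that are per gene and do not resolve exon 3.

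The cell type label was checked against markers. OPC markers were present and their summed level over 7 genes was 513 to 533 RPKM in wildtype and 649 to 673 in DISC1-Δ3 libraries, with Pdgfra, Cspg4, Olig1, Olig2 and Gpr17 higher and Ptprz1 lower by edgeR. Microglial markers were far more abundant, with a sum over 7 genes of 8096 to 8393 RPKM in wildtype and 5956 to 6128 in DISC1-Δ3 libraries, and all 7 were lower. Marker sums of mature oligodendrocytes (2442 to 2474 RPKM in wildtype), astrocytes (1315 to 1348) and choroid plexus (780.1 to 899.9) also exceeded the OPC sum. The populations are therefore called OPCs here as labelled, while the libraries also held much RNA of microglia and of other cell types. In such bulk libraries, fewer cells of a type and less RNA per cell cannot be told apart. None of the markers checked was at 0 in all libraries.

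In DISC1-Δ3 OPCs, 6 of the 9 genes were higher and the others did not pass the test. Frzb rose about 9.02-fold by mean RPKM, and Dkk1 and Dkk4 were almost absent from wildtype and present in each DISC1-Δ3 library. Sfrp2 and Dkk2 rose by factors of 2.07 and 2.30, and Dkk3, the most abundant member, by 1.32, also by mean RPKM. Sfrp1, the second in abundance, and the low members Sfrp4 and Sfrp5 did not pass the threshold. The main filter asked for 0.5 RPKM or more in 3 or more libraries. It left 8 members, of which 5 were called at an adjusted p under 0.05, beside 39.9% of all 13792 tested genes. All 5 were higher, beside 20.4% of genes higher. Dkk1 and Dkk4 passed that filter through the DISC1-Δ3 libraries alone and so had to differ, which makes the count over members that passed a description only. Dkk2 did not pass it. A filter at a mean of at least 10 reads over the 6 libraries kept all 9, of which 6 were higher, beside 19.5% of 14352 genes. The median log2 fold change of the 9 was then 0.95, beside 0.0076 over all genes tested. Dkk1 and Dkk4 reached this mean through their DISC1-Δ3 reads as well, so this count and median are also descriptions only. No member was lower by edgeR, DESeq2 or limma, and 0 were lower at an unadjusted p under 0.05 in any of them.

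**Figure D1:**
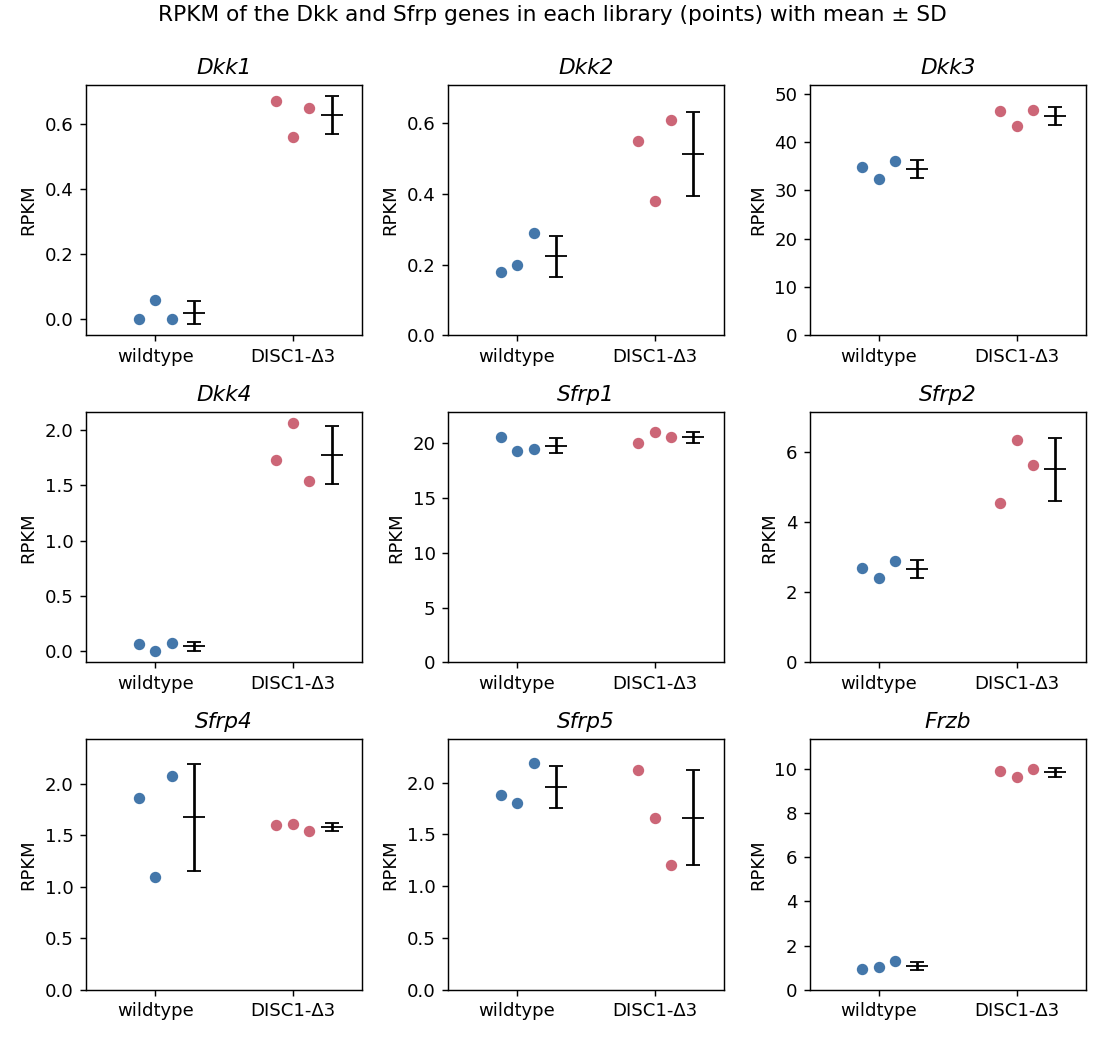
RPKM (vertical axes, linear) of the 9 genes in the 3 wildtype (blue) and 3 DISC1-Δ3 (red) libraries, with points for libraries in the order of replicates 1 to 3 and black bars for the mean ± SD. The points of the groups lie apart for Dkk1, Dkk2, Dkk3, Dkk4, Sfrp2 and Frzb, and overlap for Sfrp1, Sfrp4 and Sfrp5.

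Among the Dickkopf genes, Dkk1 and Dkk4 encode the best known LRP5 and LRP6 antagonists. Dkk1 (gene ID 13380) had 0, 2 and 0 reads in wildtype replicates 1 to 3 and 20, 19 and 22 in DISC1-Δ3 replicates 1 to 3, or 0.00, 0.06 and 0.00 against 0.67, 0.56 and 0.65 RPKM. Every DISC1-Δ3 library was above every wildtype library, while the level of Dkk1 in DISC1-Δ3 OPCs was still below 1 RPKM. At equal depth the totals of 61 and 2 reads differed by a ratio of 30.5, with a 95% exact binomial interval of 8.09 to 258 that covers counting error only. The adjusted p of Dkk1 was 1.67e-05 from edgeR. Its fitted log2 fold change of 4.62 (standard error 0.64) rests on the prior count of the fit and was 7.31 without wildtype replicate 2, which held both wildtype reads, and 0.67 by limma on log2(RPKM + 1).

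Dkk4 (gene ID 234130) had 1, 0 and 1 reads in wildtype replicates 1 to 3 against 29, 39 and 29 in DISC1-Δ3 replicates 1 to 3. This corresponded to 0.06, 0.00 and 0.07 against 1.73, 2.06 and 1.54 RPKM, without overlap. The totals of 97 and 2 reads gave a ratio of 48.5 at equal depth (95% exact binomial interval 13.1 to 406, counting error only), with an adjusted p of 4.79e-07 from edgeR and a fitted log2 fold change of 5.28 (standard error 0.55). On log2(RPKM + 1) by limma the change of Dkk4 was 1.41, since the pseudocount exceeds the wildtype level. The intervals of the ratios of Dkk1 and Dkk4 overlap widely, and these reads do not order the pair.

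Dkk2 (gene ID 56811), which can act as an antagonist or an agonist of LRP6 depending on the cell, was low in both groups. It had 9, 12 and 17 reads in wildtype replicates 1 to 3 against 28, 22 and 35 in DISC1-Δ3 replicates 1 to 3, or 0.18, 0.20 and 0.29 against 0.55, 0.38 and 0.61 RPKM. The groups did not overlap, and the nearest values were those of wildtype replicate 3 and DISC1-Δ3 replicate 2. At the filter of a mean of 10 reads the log2 fold change of Dkk2 was 1.07 (standard error 0.32, 95% interval 0.41 to 1.74, adjusted p = 0.0122 from edgeR), where 2.95% of all genes were called with a rise of at least 1. The call was lost without wildtype replicate 1 (log2 fold change 0.96, adjusted p = 0.0527), and the change was 0.30 by limma on log2(RPKM + 1).

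Dkk3 (gene ID 50781) was the most abundant of the 9 genes in all libraries. Its RPKM was 34.85, 32.27 and 36.05 in wildtype replicates 1 to 3 against 46.34, 43.29 and 46.53 in DISC1-Δ3 replicates 1 to 3, from 1531 to 1894 and 2120 to 2405 reads. The groups did not overlap, and the difference between the means of 34.4 ± 1.93 and 45.4 ± 1.82 (SD, n = 3 each) was several times the spread within a group. The log2 fold change of Dkk3 was 0.32 (standard error 0.052, 95% interval 0.21 to 0.43, adjusted p = 8.38e-05 from edgeR), small next to those of Dkk1 and Dkk4, but measured from many more reads. In RPKM units Dkk3 gained more than any other member.

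Among the Sfrp genes, Frzb (gene ID 20378), named for its Frizzled-like ligand-binding domain, changed most. Its RPKM was 0.95, 1.03 and 1.30 in wildtype replicates 1 to 3 against 9.91, 9.64 and 10.03 in DISC1-Δ3 replicates 1 to 3, from 36, 47 and 59 against 392, 432 and 448 reads. The lowest DISC1-Δ3 library was thus far above the highest wildtype library, and the coefficient of variation among DISC1-Δ3 libraries was 2.03%, below the 4.86% that counting alone would give. The log2 fold change of Frzb was 3.08 (standard error 0.12, 95% interval 2.82 to 3.34, adjusted p = 1.33e-12 from edgeR), and it ran from 2.99 to 3.23 when single libraries were omitted. Frzb was at 0.95 RPKM or more in every library and passed the filter in both groups. Calls with a rise of at least 1 on the log2 scale were made for 2.76% of all tested genes and of at least 3 for 0.624%, Frzb among both.

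Sfrp2 (gene ID 20319) encodes a Wnt-binding protein of the same subgroup as Sfrp1 and Sfrp5. Wildtype replicates 1 to 3 had 2.69, 2.40 and 2.90 RPKM and DISC1-Δ3 replicates 1 to 3 had 4.55, 6.34 and 5.61 RPKM of Sfrp2, from 65, 70 and 88 against 116, 184 and 158 reads. No libraries overlapped, although the DISC1-Δ3 libraries varied by 16.4%, against 8.09% expected from counting. The log2 fold change of Sfrp2 was 0.95 (standard error 0.16, 95% interval 0.62 to 1.28, adjusted p = 0.000100 from edgeR), and 0.80 to 1.05 over the libraries left out in turn.

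Sfrp1 (gene ID 20377) was abundant and did not pass the test. Its RPKM was 20.55, 19.27 and 19.45 in wildtype replicates 1 to 3 against 19.99, 21.04 and 20.52 in DISC1-Δ3 replicates 1 to 3, from 1190 to 1346 and 1205 to 1437 reads. The groups overlapped. The log2 fold change of Sfrp1 was -0.02 (standard error 0.052, adjusted p = 0.740 from edgeR), with a 95% interval of -0.13 to 0.09 that lies below the change measured for Dkk3. Its sign depended on the scaling, at 0.06 on library sums alone.

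Sfrp4 (gene ID 20379) and Sfrp5 (gene ID 54612) were low and their groups overlapped. Sfrp4 was at 1.86, 1.09 and 2.08 RPKM in wildtype replicates 1 to 3 against 1.60, 1.61 and 1.54 in DISC1-Δ3 replicates 1 to 3, from 29 to 55 and 37 to 42 reads. Its spread was wide in wildtype, with a coefficient of variation of 31.0% against 15.5% from counting, while the DISC1-Δ3 libraries all lay inside the wildtype range. Sfrp5 was at 1.88, 1.80 and 2.19 RPKM in wildtype replicates 1 to 3 against 2.12, 1.66 and 1.20 in DISC1-Δ3 replicates 1 to 3, from 45 to 63 and 34 to 53 reads. Here the spread was wider in DISC1-Δ3 libraries, at 27.7% against 10.5% in wildtype, and replicate 3 was the lowest. The log2 fold changes were -0.16 for Sfrp4 (95% interval -0.66 to 0.35, adjusted p = 0.643 from edgeR) and -0.33 for Sfrp5 (95% interval -0.79 to 0.13, adjusted p = 0.252). Both intervals lie below the rise of Sfrp2, and both include falls as well as smaller rises.

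**Figure D2:**
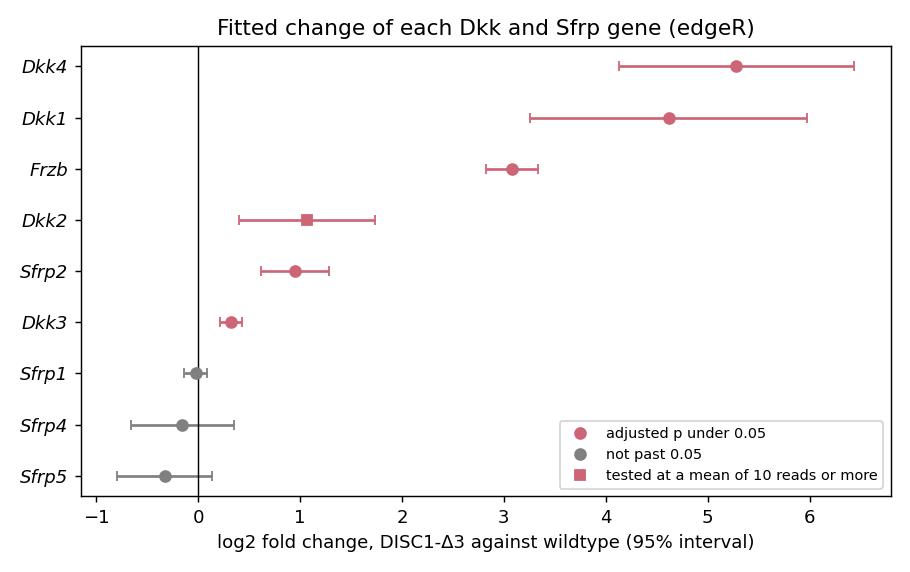
Log2 fold change of each gene, DISC1-Δ3 against wildtype (horizontal axis), from edgeR with 95% intervals, in red where the adjusted p was under 0.05 and in grey otherwise, and as a square for Dkk2, tested at a mean of at least 10 reads. The intervals of Dkk4, Dkk1 and Frzb lie at 2.82 or above, and those of Sfrp1, Sfrp4 and Sfrp5 include 0.

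The groups did not overlap for 5 of the 8 members tested by the main filter, with DISC1-Δ3 higher. Of all tested genes, 35.9% did not overlap with DISC1-Δ3 higher and 16.1% with DISC1-Δ3 lower. Dkk1 and Dkk4, among these 5, passed that filter through the DISC1-Δ3 libraries alone and so could not overlap. The count is therefore a description only. For each of the 5 and for Dkk2, exact permutation of the library labels (two-sided, on RPKM) gave p = 0.1, the lowest value possible with 3 against 3. For Dkk1 and Dkk4 the filter fixed this result in advance. The same exact permutation test gave p = 0.3 for Sfrp1, 0.8 for Sfrp4 and 0.4 for Sfrp5. The expected counts of the 9 genes were whole numbers in all 54 values, so no division of reads with another gene is visible in them. The 5 members of the main fit stayed called with each library left out in turn, DISC1-Δ3 replicate 3 included. The filter was applied to all libraries before one was left out. For Dkk1 and Dkk4 these calls are therefore a description only.

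**Figure D3:**
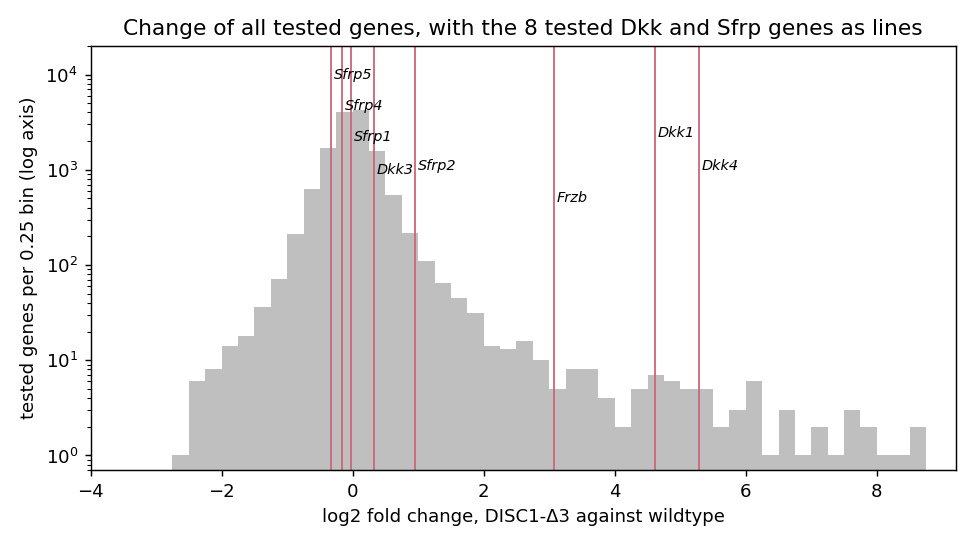
Histogram of the log2 fold changes of all 13792 tested genes in bins of 0.25 (vertical log axis, genes per bin), with the 8 tested Dkk and Sfrp genes as red lines. Sfrp5, Sfrp4, Sfrp1 and Dkk3 lie in the main mass, Sfrp2 on its upper shoulder at 0.95, and Frzb, Dkk1 and Dkk4 in the sparse upper tail from 3.08 to 5.28.

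The order of the levels, compared per length as RPKM, differed between the genotypes in its lower part. In wildtype it was Dkk3, Sfrp1, Sfrp2, Sfrp5, Sfrp4, Frzb, Dkk2, Dkk4 and Dkk1, and the library ranges of Sfrp5 and Sfrp4, of Sfrp4 and Frzb, and of Dkk4 and Dkk1 overlapped. In DISC1-Δ3 OPCs it was Dkk3, Sfrp1, Frzb, Sfrp2, Dkk4, Sfrp5, Sfrp4, Dkk1 and Dkk2. There Dkk4, Sfrp5 and Sfrp4 overlapped with one another, as did Dkk1 and Dkk2. Frzb stood between Sfrp1 and Sfrp2 there, apart from both, and in wildtype it overlapped with Sfrp4.

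Summed over the 4 Dickkopf genes, the level was 35.09, 32.53 and 36.41 RPKM in wildtype replicates 1 to 3 against 49.29, 46.29 and 49.33 in DISC1-Δ3 replicates 1 to 3. Dkk3 made up nearly all of both sums. Summed over the 5 Sfrp genes, it was 27.93, 25.59 and 27.92 against 38.17, 40.29 and 38.90. The 9 genes together rose from 61.8 ± 3.27 to 87.4 ± 0.826 RPKM (SD, n = 3 each). The makeup of the sum shifted as well. As a share of it, Frzb went from 1.77% ± 0.257 to 11.3% ± 0.126 and Dkk4 from 0.0680% ± 0.0593 to 2.03% ± 0.321. The share of Sfrp1 went from 32.0% ± 1.55 to 23.5% ± 0.746, while its own level did not pass the test. Without Dkk3 and Sfrp1, the remaining 7 genes summed to 7.68 ± 1.13 RPKM in wildtype and 21.5 ± 0.633 in DISC1-Δ3 OPCs. These sums of RPKM carry no TMM factors, are descriptions and were not tested.

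**Figure D4:**
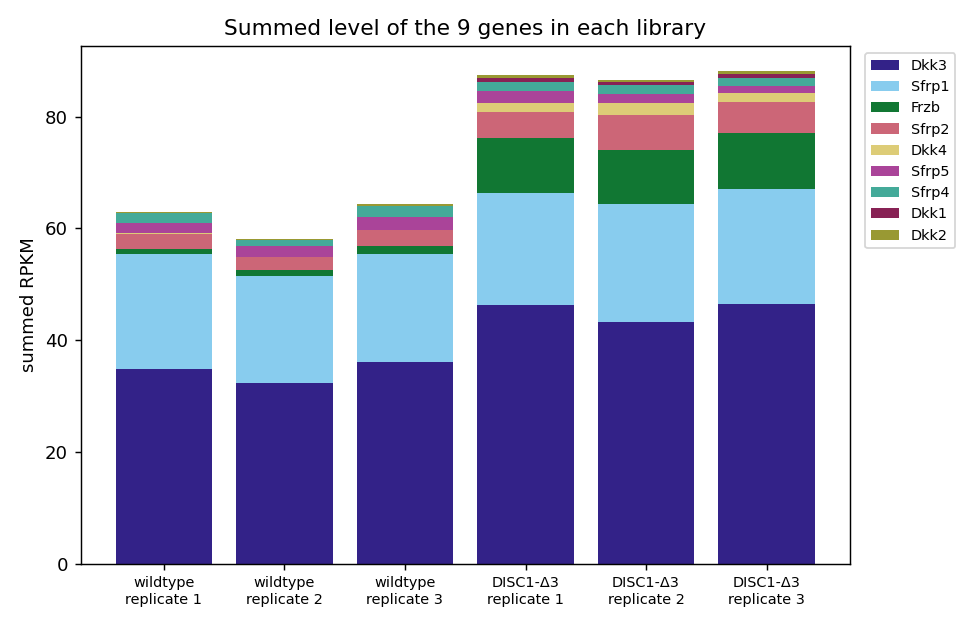
RPKM of the 9 genes stacked for each library (vertical axis, summed RPKM from 0). Dkk3 and Sfrp1 fill most of each bar, the wildtype bars end between 58.1 and 64.3 and the DISC1-Δ3 bars between 86.6 and 88.2, and the Frzb segment is about 1 RPKM in wildtype and about 10 in DISC1-Δ3 libraries.

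On the mouse genome (GRCm38, the assembly known as mm10, with positions from GENCODE M21) the 9 protein-coding genes lie on 6 chromosomes. Dkk4 (chr8:22624043-22627547) and Sfrp1 (chr8:23411502-23449632), both on the plus strand, are separated by 783955 bases, and the first rose while the second did not pass the test. Dkk2 (chr3:132085292-132180304, plus strand) shares its chromosome with Sfrp2 (chr3:83766321-83774316, plus strand), and both rose. Dkk1 (chr19:30545863-30549665, minus strand) and Sfrp5 (chr19:42197971-42202252, minus strand) share another, and only the former rose by the test. Frzb lies at chr2:80411970-80447625 on the minus strand, Dkk3 at chr7:112116017-112159057 on the minus strand, and Sfrp4 at chr13:19623104-19632994 on the plus strand.

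RefSeq promoters of build GRCm38.p6, 250 bases before to 50 after the start, matched 5 members by gene ID: Dkk1, Dkk2, Sfrp2, Sfrp5 and Frzb. They were searched on both strands for CTTTGA, whose reverse complement is TCAAAG, a form of the core letters bound by the TCF/LEF factors that act with β-catenin. Other forms such as CTTTGT were not searched or counted, and those letters do occur in the stretch of Dkk2 printed below. These letters were present in 16.0% of all 32851 promoters and in 11.8% of those of tested genes. Of the 5 members, Dkk1 and Frzb held a match, while Dkk4, which also rose, had no promoter to search. Dkk1 had TCAAAG at bases -174 to -169 and CTTTGA at -117 to -112 from the RefSeq start, and Frzb had TCAAAG at -95 to -90. The longer CTTTGAA, which contains CTTTGA, was found once, at the second site of Dkk1, against 5.14% of all promoters. CTTTGAT, which also contains it, was in none of the 5 and in 3.73% of all promoters. The first base of the GENCODE gene lies 169 bases upstream of the RefSeq start for Dkk1 and 229 for Frzb. The second site of Dkk1 and the site of Frzb thus fall within the annotated gene. Whether they lie in an exon was not checked. A match describes letters in this window and says nothing about binding. The stretches of Dkk1 and Frzb with a match, in capitals, were as follows, 5′ to 3′ along the gene:
Dkk1, distal match, chr19:30549665-30549746, minus strand: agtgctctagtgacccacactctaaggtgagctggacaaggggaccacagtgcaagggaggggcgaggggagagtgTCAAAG
Dkk1, proximal match, chr19:30549598-30549623, minus strand: cctcccaaagCTTTGAaatcccatcc
Frzb, chr2:80447476-80447501, minus strand: ccctgaaaacTCAAAGccttctcgga

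For comparison, the 250 bases before the RefSeq start of Sfrp2 and Dkk2, which rose, and of Sfrp5, which did not pass the test, held no CTTTGA on either strand. Their GC contents over the whole 300 bases were 66.0%, 57.7% and 61.3%, beside 60.7% for Dkk1, 64.7% for Frzb and a median of 52.7% over all promoters.
Sfrp2, chr3:83766071-83766320, plus strand: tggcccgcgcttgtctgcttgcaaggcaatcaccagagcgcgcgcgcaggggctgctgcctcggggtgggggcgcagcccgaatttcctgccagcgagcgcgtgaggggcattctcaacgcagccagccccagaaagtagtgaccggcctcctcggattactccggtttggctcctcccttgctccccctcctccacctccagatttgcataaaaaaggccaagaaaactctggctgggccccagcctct
Dkk2, chr3:132085042-132085291, plus strand: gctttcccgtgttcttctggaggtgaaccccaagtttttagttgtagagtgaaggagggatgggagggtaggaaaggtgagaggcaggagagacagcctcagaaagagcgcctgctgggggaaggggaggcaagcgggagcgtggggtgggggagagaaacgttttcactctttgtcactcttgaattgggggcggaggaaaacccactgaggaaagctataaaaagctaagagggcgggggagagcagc
Sfrp5, chr19:42202253-42202502, minus strand: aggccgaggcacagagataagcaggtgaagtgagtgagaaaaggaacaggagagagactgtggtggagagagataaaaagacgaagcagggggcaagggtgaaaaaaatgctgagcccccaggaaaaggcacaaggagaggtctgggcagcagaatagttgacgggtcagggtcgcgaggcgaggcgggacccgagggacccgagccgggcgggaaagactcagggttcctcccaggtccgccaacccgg

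The receptors through which these antagonists act were read as a list of 14 genes, LRP5 and LRP6, the Kremen receptors and 10 Frizzled receptors. Of 13 tested, 3 were higher and 5 lower by edgeR, beside 20.4% and 19.5% of all tested genes, with a median log2 fold change of -0.02. On library sums alone 3 were higher and 3 lower, and without wildtype replicate 1 or without wildtype replicate 2 also 3 and 3. Lrp5 was at 35.10, 33.07 and 32.17 RPKM in wildtype replicates 1 to 3 against 27.32, 27.28 and 25.12 in DISC1-Δ3 replicates 1 to 3, without overlap (log2 fold change -0.41, standard error 0.052, adjusted p = 5.73e-06 from edgeR). Lrp6 was at 4.32, 4.33 and 3.87 against 2.92, 3.29 and 4.31 RPKM, and DISC1-Δ3 replicate 3 lay inside the wildtype range. The log2 fold change of Lrp6 was -0.33 (adjusted p = 0.0182 from edgeR), and -0.51 without DISC1-Δ3 replicate 3 (adjusted p = 4.03e-06). It missed the threshold, at -0.30, -0.30 and -0.24, without wildtype replicate 1, wildtype replicate 2 or DISC1-Δ3 replicate 1 (adjusted p = 0.0775, 0.0739 and 0.0576). On library sums it was -0.25 (adjusted p = 0.0867) and by limma -0.21 (adjusted p = 0.157).

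Kremen1, the Dkk receptor that removes LRP6 from the cell surface, rose from 8.34, 7.92 and 8.10 RPKM to 13.46, 12.43 and 12.69 (log2 fold change 0.58, standard error 0.064, adjusted p = 1.06e-06 from edgeR). Its relative Kremen2 had 0 to 4 reads in all libraries and was not tested. Of the Frizzled receptors, Fzd10 had the largest change, from 9.61 to 11.31 RPKM in wildtype to 30.08 to 34.15 in DISC1-Δ3 libraries (log2 fold change 1.60, standard error 0.076, adjusted p = 1.63e-11 from edgeR). Fzd1 went from 4.75 to 5.25 RPKM up to 9.83 to 10.10 (log2 fold change 0.93, adjusted p = 1.64e-08). Fzd4 and Fzd7 were lower, by -0.53 and -0.36 on the log2 scale (adjusted p = 0.00850 and 0.00212 from edgeR), and stayed called under all alternatives. Fzd2, whose groups overlapped at 16.34 to 18.87 and 15.39 to 17.73 RPKM, was called lower at -0.22 (adjusted p = 0.0212 from edgeR). This call was lost on library sums, by limma and without wildtype replicate 1 or 2 (adjusted p = 0.133, 0.171, 0.0881 and 0.119).

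Other lists of the pathway set the members in context. Of 8 tested genes for other secreted or membrane antagonists, Wif1, Notum, Sostdc1 and Apcdd1 were higher and Igfbp4 lower, beside 20.4% and 19.5% of all tested genes (by limma and on library sums 5 were higher and 0 lower). Wif1 was at 0.10 to 0.12 RPKM in wildtype and 44.94 to 49.42 in DISC1-Δ3 libraries, and Notum at 5.78 to 6.08 and 197.6 to 201.9. The level of Frzb in DISC1-Δ3 OPCs was thus below those of Wif1 and Notum, and that of Dkk3 was similar to that of Wif1. Of 10 tested Wnt ligands 5 were higher, Wnt5a, Wnt5b, Wnt6, Wnt10a and Wnt16, and 0 lower, beside the same shares of all tested genes. None was lower at an unadjusted p under 0.05 by edgeR, DESeq2 or limma. Wnt6 went from 0.25 to 0.53 RPKM up to 25.53 to 29.55, and Wnt16 from 0.00 to 0.04 up to 6.03 to 8.57. By DESeq2 4 ligands were higher, by limma 6, and by edgeR 4 without wildtype replicate 2 or DISC1-Δ3 replicate 2. The feedback targets of β-catenin, 16 genes tested, share Wif1, Notum and Apcdd1 with the antagonists. Of them 14 were higher by edgeR, beside 20.4% of all tested genes, 13 by DESeq2 and 14 by limma, and 0 were lower, with 1, 1 and 0 lower at an unadjusted p under 0.05 and 1 called lower without DISC1-Δ3 replicate 3. Wif1, Wnt10a and Wnt16 were below 0.5 RPKM in every wildtype library, passed the filter through the DISC1-Δ3 libraries alone and so had to differ. The counts of the lists that hold them are therefore descriptions only. All lists were written with results known, and they are not independent evidence.

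Markers of other cells were read the same way, beside 20.4% of all tested genes higher and 19.5% lower. All 7 markers of pericytes and smooth muscle were higher, at sums of 92.4 to 101.8 RPKM in wildtype and 139.95 to 144.9 in DISC1-Δ3 libraries, and Cspg4 on that list also marks OPCs. The count of this list was 6 without wildtype replicate 1, wildtype replicate 2 or DISC1-Δ3 replicate 2. Of leptomeningeal fibroblast markers, 2 of 7 were higher, Pdgfra, which also marks OPCs, and Igf2, with sums of 82.1 to 83.6 and 98.5 to 106.0 RPKM, and neither Col1a1 nor Col1a2 passed the test. The share of fibroblast markers called is near that of all genes. These lists share genes with the OPC list and do not mark those cells alone. Of choroid plexus markers 4 of 7 were higher, with sums of 780.1 to 899.9 and 1018 to 1145 RPKM, of endothelial markers 4 of 7 (113.5 to 118.4 and 148.2 to 150.5) and of neuronal markers 5 of 7 (322.1 to 325.2 and 379.2 to 400.5). Without wildtype replicate 2, wildtype replicate 3, DISC1-Δ3 replicate 1 or DISC1-Δ3 replicate 2, the count was 2 for endothelium and 1 for fibroblasts, and without DISC1-Δ3 replicate 1 it was 3 for neurons. Without DISC1-Δ3 replicate 3, 1 choroid plexus marker and 1 neuronal marker were called lower. Markers of more mature glia went mostly the other way. Of astrocyte markers 1 was higher and 5 were lower of 7 (sums 1315 to 1348 and 1259 to 1286), and of mature oligodendrocyte markers 5 of 7 were lower (sums 2442 to 2474 and 2256 to 2288). The part of these cell types in the changes of the Dkk and Sfrp genes was not tested.

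Genes with the most similar pattern were looked up by the root mean square distance of gene-centred log2(RPKM + 0.5) over the 6 libraries, among 13328 genes with a mean of at least 20 reads. For Frzb they were Krt8, Tac2 and Rspo4 (distances 0.14, 0.15 and 0.16), and for Sfrp2 Scg2, Rai2 and Lrfn2 (0.037, 0.058 and 0.071). For Dkk3 they were Amt, Klhl23 and Kit (0.014, 0.029 and 0.030), and for Sfrp1 Mcm4, Slc19a1 and Mark2 (0.015, 0.016 and 0.017). For Sfrp4 they were Lrmda, Osgepl1 and Tmem120b (0.084, 0.087 and 0.091), and for Sfrp5 Mtif3, Sigirr and Dnaaf3 (0.075, 0.083 and 0.084). The distances describe these libraries and carry no test. Krt8, Tac2 and Rspo4 had log2 fold changes of 3.40, 2.88 and 6.57, beside 3.08 for Frzb. A near pattern thus need not mean an equal fold change. Dkk1, Dkk2 and Dkk4 were left out here, since Dkk1 and Dkk4 had fewer than 20 reads on average and Dkk2 did not pass the RPKM filter.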

How the data were processed

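RNA of 6 libraries was sequenced as single-end reads of 50 bases on a BGIseq500. The authors deposited, per gene and library, an expected count and its RPKM, and 90.2% of the counts above 0 are whole numbers. The submitters' processing notes name Bowtie2 2.2.5 and mm10, the study names DESeq2, and the counting tool, annotation and strand setting are not given in the sources used here. Group averages in 4 further columns were not used. Groups came from the sample titles.

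Rounded counts were scaled by TMM and compared by edgeR 4.0.16 (glmQLFTest, R 4.3.3) with genotype as the only term, for genes at 0.5 RPKM or more in 3 or more libraries. Fold changes carry edgeR's prior count, and 95% intervals were formed from the quasi-likelihood F. P-values are two-sided and adjusted over all tested genes. Alternatives were other scalings and filters, DESeq2 1.42.0, limma 3.58.1 on log2(RPKM + 1) and log2(RPKM + 0.1), the replicate number as a block, and each library left out. Depth of 13716619 to 16417219 reads makes 1 read 0.0609 to 0.0729 CPM. Reads are not independent molecules, so counting intervals cover counting error only.

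All 9 members are named, with Disc1, Cspg4, Lrp5, Lrp6, Kremen1, Kremen2, the 2 called genes of each pathway list with the largest change, and for members of at least 20 mean reads the 3 genes of nearest pattern; others appear as members of a list. Sostdc1, Apcdd1, Igfbp4, Wnt5a, Wnt5b, Wnt10a, Fzd2, Fzd4 and Fzd7 were chosen once values had been seen. Members, lists and motifs were chosen with earlier results of these data known. Promoters are RefSeq's (GRCm38.p6).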

Additional observations from a re-analysis of the deposited data

How the results depend on the processing

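Over 15 alternatives the number of members higher stayed between 4 and 6 and the number lower at 0. It was 4 at an RPKM of at least 1, which Dkk1 does not reach, and 6 without a filter or at a mean of 10 reads, which admit Dkk2. Across libraries left out in turn it was 5. Dkk3, Dkk4, Frzb and Sfrp2 kept direction and threshold in all 15, and Dkk1 in the 14 that test it (adjusted p 7.15e-07 to 0.000389). Dkk1 and Dkk4 pass the RPKM filters and the mean of 10 reads through their DISC1-Δ3 libraries. Libraries were left out only after filtering. For Dkk1 and Dkk4, and for the counts that hold them, the alternatives are therefore descriptions only. Dkk2 ran from 0.93 to 1.30 over the libraries left out, and without wildtype replicate 1 missed the threshold (0.96). The sign of Sfrp1 turned on library sums (0.058), by limma with pseudocounts of 1 (0.052) and 0.1 (0.054), and over the libraries left out (-0.066 to 0.0013, positive without wildtype replicate 1). Sfrp4 ran from -0.40 to 0.048 over them, positive without wildtype replicate 3, and Sfrp5 from -0.55 to -0.14. Neither gene passed the threshold under any alternative. Over all tested genes 2807 were higher and 2691 lower. By limma 1774 and 1763 were lower with pseudocounts of 1 and 0.1; limma applied no scaling factors to the RPKM. Of the calls, 51.1% were higher in the main comparison and 69.2% on library sums and by limma.

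Deviations of same-numbered libraries had correlations of 0.12, 0.030 and -0.034 across genes. Replicate 1 had the fewest reads in both genotypes, 13716619 in wildtype and 14229954 in DISC1-Δ3. Whether same-numbered libraries were prepared together was not tested. With the replicate number as a block, 5 members were again higher and 0 lower, and 5429 of all genes were called, against 5498. Depth limits Dkk1, Dkk4, Dkk2, Sfrp4 and Sfrp5, whose groups rest on at most 160 reads each.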
